A study of Mus musculus with 24 samples.

Results

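The heat shock chaperone genes described here were 10 genes of the deposited single-cell count matrix, taken by symbol from its 24447 genes: Hspa1a, Hspa1b, Hspa8, Hspa5, Hsph1, Hsp90aa1, Hsp90ab1, Dnaja1, Dnajb1 and Hspe1. The set was chosen in part because Hspa1a was much higher in Jα18-deficient than in WT cytotoxic cells, so every comparison of Jα18-deficient cells with another pool below is a description of values that helped to choose the genes, and nothing is read from it. The study profiled NKT cells, sorted as NK1.1+CD3e+ cells, from perfused livers of mice aged 8 to 10 weeks. The mice were wild type (WT), Jα18-deficient, which lack type I NKT cells, or CD1d-deficient, in which both the type I and the type II population are missing because CD1d presents their lipid antigens. The WT mice were purchased C57BL/6 mice. The deficient lines came from another source, and the methods do not state their strain. Individual cells were picked by hand, and transcripts were counted with unique molecular identifiers (UMIs). The labels list 8 libraries a genotype, but a cell's name carries only its genotype, so the cells of a genotype form 1 pool, there are no replicates between genotypes, and no test of a genotype difference could be made. A batch, a mouse and a genotype therefore cannot be told apart.

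Chaperones bind unfolded stretches of protein and help them to fold, refold or reach their place in the cell. Hsp70 proteins do this in cycles of ATP use that J-domain proteins start and that nucleotide exchange factors such as Hsp110 reset, and Hsp90 takes over many kinases, receptors and transcription factors at a late step. Most cells hold constitutive members at high level, whereas the inducible Hsp70 genes are switched on within minutes by heat, dissociation or other stress, when heat shock factor HSF1 binds heat shock elements in their promoters. The endoplasmic reticulum has its own Hsp70, which answers to the unfolded protein response, and mitochondria have the Hsp60 and Hsp10 chaperonin.

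The matrix held 623 WT, 725 Jα18-deficient and 387 CD1d-deficient cells with 34102694, 60484252 and 14536585 UMIs. The median cell held 40467, 46670 and 13508 UMIs, so the CD1d-deficient cells were the shallowest, and 353 of the 1735 cells had fewer than the 10000 UMIs that the methods set as the lower limit. All 1735 cell names were distinct, and 667 cell numbers were used in more than 1 pool. Cd1d1, the targeted gene of the CD1d-deficient mice, had 854, 934 and 0 UMIs in the 3 pools, and the 0 allows up to 0.206 CPM, which here and below means UMIs per 1000000 UMIs of a pool. Every cell held a UMI of at least 1 of the 6 T cell and NK1.1 markers, Cd3e was found in 89.6%, 96.7% and 74.9% of cells, and Klrb1c, which encodes NK1.1, in 92.3%, 95.6% and 92.0%. Myeloid markers summed to 81.6, 17.5 and 600 CPM in WT, Jα18-deficient and CD1d-deficient cells, with 5, 4 and 5 of the 5 genes detected, most of it Lyz2 (77.3, 14.7 and 588 CPM) and Cd14 at 0 in Jα18-deficient cells. Hepatocyte markers summed to 16.4, 2.63 and 0.826 CPM, B cell markers to 6.07, 11.04 and 14.4 and endothelial markers to 6.45, 14.7 and 5.92, and neutrophil, erythroid and platelet markers to at most 1.90.

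The regulatory sequence of Hspa1a and Hspa1b is shown first, because these are the genes whose levels differed most from cell to cell. They lie on the minus strand of chromosome 17 in the mm9 build, Hspa1a at chr17:35106144-35109069 and Hspa1b at chr17:35093381-35096183, with 9960 bases between them. The 250 bases before the RefSeq start of each gene were matched to mm9 at chr17:35109102-35109351 for Hspa1a and at chr17:35096184-35096433 for Hspa1b. Capitals mark the heat shock element, written here as GAANNTTC or TTCNNGAA on either strand, which lies 104 to 97 bases before the start in both.
Hspa1a: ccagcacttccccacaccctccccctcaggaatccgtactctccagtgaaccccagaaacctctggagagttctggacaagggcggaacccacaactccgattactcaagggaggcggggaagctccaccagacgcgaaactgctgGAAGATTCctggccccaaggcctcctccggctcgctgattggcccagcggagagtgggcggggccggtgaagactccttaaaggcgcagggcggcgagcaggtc
Hspa1b: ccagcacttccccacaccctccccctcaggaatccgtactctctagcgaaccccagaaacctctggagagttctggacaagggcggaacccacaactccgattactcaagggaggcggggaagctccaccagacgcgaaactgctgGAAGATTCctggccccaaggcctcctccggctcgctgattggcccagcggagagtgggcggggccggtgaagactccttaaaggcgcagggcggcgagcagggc
The windows were identical at 247 of 250 bases (98.8%) and differed by C44T, T47C and T249G, counted from 1 at the 5′ end of the window with the Hspa1a base first. Of the 32851 promoter windows of the RefSeq table, 12.8% held at least 1 such element in the 250 bases before the start. The annotated transcripts also overlap in sequence: 59.4% of the 50-base windows of the Hspa1a transcript and 62.1% of those of Hspa1b occur in the other gene. The last 500 windows of each transcript, at its 3′ end, did not. Reads from the shared stretches cannot tell the genes apart, and the split of UMIs between them is uncertain.

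Among the other genes, the RefSeq table gave windows for Hspa5, Hsph1, Dnaja1, Dnajb1 and Hspe1. Short sites of Hspe1 and Hspa5 are shown because their elements are rarer than a single heat shock element. The Hspe1 site, at chr1:55144897-55144926 on the plus strand, holds 3 overlapping heat shock elements from 89 to 72 bases before the start, a number that 0.140% of all windows reached. In the annotation it lies before Hspe1 and within a 5′ untranslated exon of 1 transcript of its neighbour Hspd1 on the other strand. The Hspa5 site, at chr2:34627540-34627568 on the plus strand, holds an ER stress element, a CCAAT box followed after 9 bases by CCACG, which 0.113% of all windows held. It lies before the annotated start of the protein-coding Hspa5 transcripts and within the first exon of a noncoding one.
Hspe1: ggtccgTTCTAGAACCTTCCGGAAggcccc
Hspa5: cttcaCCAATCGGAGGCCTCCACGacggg
Hsph1 held a heat shock element in each of its 2 windows, Dnaja1 in 1 of its 3, and neither of the 2 Dnajb1 windows held a match to these letters. A match is a string of letters in a window and was not tested for binding in these cells.

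Hsp90ab1 was the highest of the 10 genes, at 2019, 1768 and 1303 CPM in WT, Jα18-deficient and CD1d-deficient cells. Hspa8 came next at 1518, 1357 and 1243 CPM. Hsp90aa1 (613, 616 and 529), Hspa5 (600, 531 and 702), Hspe1 (399, 267 and 278) and Dnaja1 (397, 450 and 295) formed a middle range. Dnajb1 was 111, 202 and 129 CPM, and Hspa1a, Hspa1b and Hsph1 lay between 5.10 and 71.9. A UMI counts a transcript copy, so no level was divided by transcript length. The 10 genes together took 0.575%, 0.531% and 0.453% of all UMIs in the 3 pools. All levels from here on are CPM of a pool, with exact Poisson 95% intervals that cover counting error alone.

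**Figure D1:**
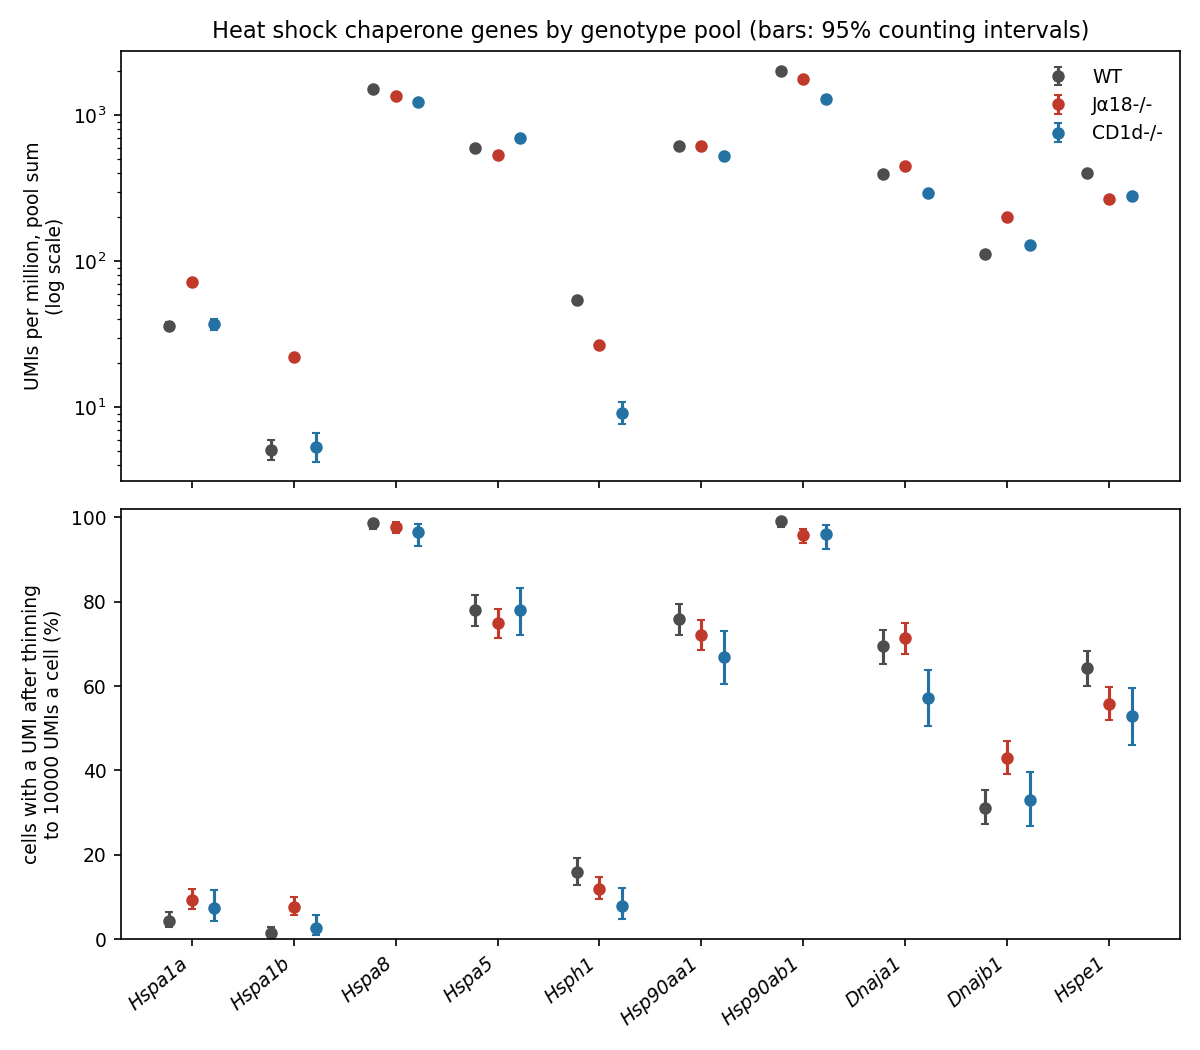
The upper panel plots the level of each gene as CPM on a log axis, and the lower panel the percent of cells with at least 1 UMI after each cell was thinned to 10000 UMIs. Points are the WT (623 cells, 523 thinned), Jα18-deficient (725, 632) and CD1d-deficient (387, 227) pools and bars are 95% counting intervals. Hspa1a, Hspa1b and Hsph1 lie lowest in both panels, and the pool levels lie closest together for Hsp90aa1 and Hspa8.

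Hspa1a encodes an Hsp70 that is made mainly under stress. It had 1230 UMIs in WT cells, or 36.1 CPM (34.1 to 38.1), 4349 in Jα18-deficient cells, or 71.9 CPM (69.8 to 74.1), and 536 in CD1d-deficient cells, or 36.9 CPM (33.8 to 40.1). In these sums WT and CD1d-deficient cells were within each other's counting interval, and Jα18-deficient cells were 1.99-fold above WT. The order was another where each cell counted equally, with means of 25.6 CPM in WT, 57.7 in Jα18-deficient and 82.5 in CD1d-deficient cells and SDs over cells of 173, 299.8 and 307. Shallow cells weigh more on that scale: the highest CD1d-deficient cell by CPM, at 3230, held 21 Hspa1a UMIs among 6502. Of the 387 CD1d-deficient cells, 160 were below 10000 UMIs. Summed over cells that met that limit, the levels were 36.4, 72.1 and 28.5 CPM in WT, Jα18-deficient and CD1d-deficient cells. The sums came from few cells. Before thinning to a common depth, 54 of 623 cells (8.67%) in WT, 180 of 725 (24.8%) in Jα18-deficient and 61 of 387 (15.8%) in CD1d-deficient mice held a Hspa1a UMI, and 28, 93 and 23 of them held exactly 1. After each cell was thinned to 10000 UMIs, the shares were 4.40% (2.81 to 6.53), 9.34% (7.18 to 11.9) and 7.49% (4.42 to 11.7), exact 95% intervals over 523, 632 and 227 cells. The thinned CD1d-deficient share overlapped with that of both other pools.

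Hspa1b, its near-identical neighbour, was lower in each pool. It had 174, 1331 and 78 UMIs, which is 5.10 CPM (4.37 to 5.92) in WT, 22.0 CPM (20.8 to 23.2) in Jα18-deficient and 5.37 CPM (4.24 to 6.70) in CD1d-deficient cells. In the same order, 2.89%, 20.7% and 5.43% of cells held a Hspa1b UMI, and after thinning 1.53% (0.663 to 2.99), 7.75% (5.79 to 10.1) and 2.64% (0.976 to 5.66). No cell type here is known to lack these genes, so the 4 B cell markers together served as the measure of stray UMIs, and at least 1 of their UMIs was found in 8.03%, 10.3% and 9.56% of the same cells. The Hspa1b shares of WT and CD1d-deficient cells were below that level and are not read as expression, and the WT share of Hspa1a was close to it. Other lists gave other levels: hepatocyte markers were found in 10.8%, 3.86% and 2.84% of cells and myeloid markers in 40.3%, 33.7% and 81.1%. The CD1d-deficient share of Hspa1b was above the hepatocyte level, and every share of both genes was below the myeloid level. Each list also sets several genes against 1, so the B cell level is only a rough guide. In Jα18-deficient cells 54 cells held both genes, 126 Hspa1a alone and 96 Hspa1b alone, against 9, 45 and 9 in WT cells and 6, 55 and 15 in CD1d-deficient cells.

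A handful of cells carried most of the Hspa1a and Hspa1b UMIs in every pool. The 10 highest cells held 81.5%, 70.9% and 71.1% of the Hspa1a UMIs in WT, Jα18-deficient and CD1d-deficient cells, and 95.4%, 61.2% and 84.6% of the Hspa1b UMIs. For Hspa8 the 10 highest cells held 12.6%, 11.6% and 27.3%. The CD1d-deficient pool is the smallest, so 10 cells are a larger part of it than of the other pools. Hsf1, which encodes heat shock factor 1, was 38.4, 38.9 and 39.5 CPM, near Hspa1a in WT and CD1d-deficient but not in Jα18-deficient cells, and had 37.8%, 37.3% and 57.8% of its UMIs in its 10 highest cells. The highest Hspa1a cell was a Jα18-deficient cell with 1297 UMIs among its 216547, which is 29.8% of all Hspa1a UMIs of the pool. The highest WT cell had 214 and the highest CD1d-deficient cell 220. Cells with 10 or more UMIs of the 2 genes together numbered 19 (3.05%), 59 (8.14%) and 16 (4.13%).

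**Figure D2:**
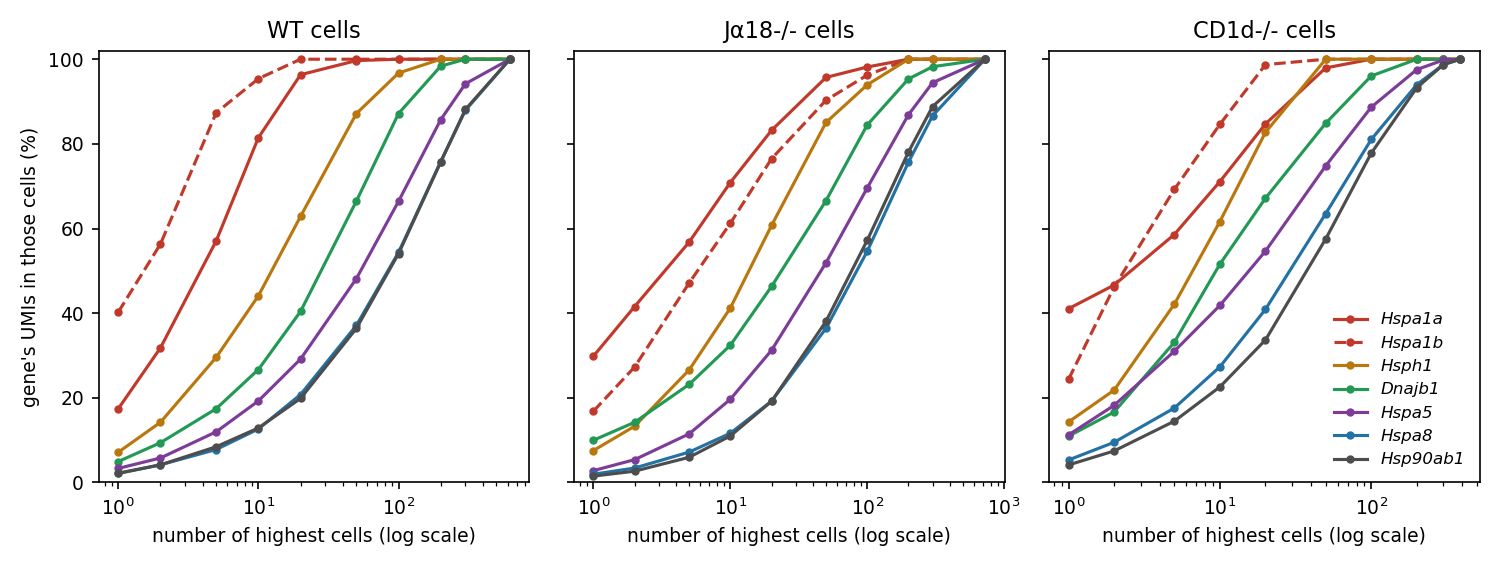
Each curve gives the percent of a gene's UMIs (y axis) held by its highest cells, with their number on a log x axis, in WT, Jα18-deficient and CD1d-deficient cells. The red curves of Hspa1a and Hspa1b rise first, with 61.2% to 95.4% of the UMIs in 10 cells, and Hspa8 and Hsp90ab1 rise last, with 10.98% to 27.3%.

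The other 8 chaperone genes were not all higher in the 10 cells of each pool with the most Hspa1a and Hspa1b UMIs. Against the remaining cells of the pool, the other 8 genes ranged from 0.636 to 1.81 times in WT, from 0.372 to 1.31 times in Jα18-deficient and from 0.213 to 3.70 times in CD1d-deficient cells. Dnajb1, a J-domain partner of Hsp70, was 1.77, 1.17 and 3.70 times the level of the remaining cells, and 1.16, 1.03 and 2.62 times without the cell of each set that held the most of it. Hsp90aa1 was 1.81, 1.20 and 1.69 times, but in WT 1014 of its 1483 UMIs lay in 1 cell, and without that cell the ratio was 0.825. Hsph1 was 0.636, 0.372 and 0.213 times, on only 48, 29 and 1 UMIs, of which 44, 25 and 1 lay in 1 cell. These cells were chosen on Hspa1a and Hspa1b and their values are given without a test. They were deeper than the rest, with a median of 105851 against 40169 UMIs in WT, 291314 against 45469 in Jα18-deficient and 20258.5 against 13340 in CD1d-deficient cells, and the part of depth in these values was not tested. Of these 10 cells, 2 WT, 10 Jα18-deficient and 9 CD1d-deficient cells had at least 2 UMIs of Cd8a or of the Ly49 receptor genes, beside 28.9%, 83.3% and 83.2% of all cells of the pools, and 1, 2 and 0 met the rule for dividing cells given below.

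Hspa8, on chromosome 9 at chr9:40609067-40613283, encodes the constitutive Hsp70 that folds new proteins and uncoats vesicles. Its level was 1518 CPM (1505 to 1531) in WT, 1357 CPM (1348 to 1366) in Jα18-deficient and 1243 CPM (1225 to 1261) in CD1d-deficient cells. It was found in 98.4%, 99.6% and 97.4% of cells. The cells spread around a median of 1243, 1169 and 1018 CPM, with the lowest 10% of cells under 413, 403 and 318 CPM and the highest 10% above 2786, 2320 and 2291 CPM. The order WT, Jα18-deficient, CD1d-deficient exceeded the counting intervals, but the largest log2 ratio, CD1d-deficient to WT cells, was -0.29.

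Hspa5, at chr2:34627490-34632051, encodes BiP, the Hsp70 of the endoplasmic reticulum. It was highest in CD1d-deficient cells, with 702 CPM (688 to 715), against 600 CPM (592 to 608) in WT and 531 CPM (525 to 537) in Jα18-deficient cells. The shares of cells after thinning, 78.0%, 75% and 78.0% in WT, Jα18-deficient and CD1d-deficient cells, overlapped in their intervals. In CD1d-deficient cells 10 cells held 41.8% of the Hspa5 UMIs, and without the 10 highest cells of each pool the log2 ratio of CD1d-deficient to WT cells was -0.13 in place of 0.23 and that to Jα18-deficient cells 0.062 in place of 0.40. With each cell counted equally the ratios were 0.19 and 0.40. The 10 cells are a larger part of the 387 CD1d-deficient cells than of the 623 WT or 725 Jα18-deficient cells, so leaving them out did not trim the pools alike.

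Hsph1, at chr5:150416862-150438951, encodes an Hsp110 that releases ADP from Hsp70. Its level was 53.9 CPM (51.4 to 56.4) in WT, 26.8 CPM (25.5 to 28.1) in Jα18-deficient and 9.15 CPM (7.66 to 10.8) in CD1d-deficient cells, with 1837, 1619 and 133 UMIs. The shares of cells after thinning were 15.9% (12.8 to 19.3), 12.03% (9.59 to 14.8) and 7.93% (4.77 to 12.2), so neighbours in this order overlapped and WT and CD1d-deficient cells did not. Where each cell counted equally, the mean was 51.8 CPM with an SD over cells of 156 in WT, 37.2 ± 138 in Jα18-deficient and 29.2 ± 134 in CD1d-deficient cells, a log2 ratio of CD1d-deficient to WT cells of -0.83 in place of -2.56. Myeloid markers moved along the opposite order between WT and CD1d-deficient cells (81.6 and 600 CPM), and their part in the Hsph1 difference was not tested.

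Hsp90aa1 and Hsp90ab1 encode the inducible and the constitutive cytosolic Hsp90, at chr12:111928815-111940938 and chr17:45704724-45710220. Hsp90aa1 was 613 CPM (605 to 621) in WT, 616 CPM (610 to 623) in Jα18-deficient and 529 CPM (517 to 541) in CD1d-deficient cells, and the first 2 overlapped. Hsp90ab1 was 2019 CPM (2004 to 2034), 1768 CPM (1757 to 1778) and 1303 CPM (1285 to 1322). It was the most evenly held of the 10 genes together with Hspa8, and was found in 99.2%, 98.6% and 96.6% of cells. The log2 ratio of CD1d-deficient cells was -0.63 to WT and -0.44 to Jα18-deficient cells for Hsp90ab1.

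Dnaja1 and Dnajb1, at chr4:40669183-40684182 and chr8:86132074-86135801, encode J-domain proteins that hand clients to Hsp70. Dnaja1 was 397 CPM (390 to 404) in WT, 450 CPM (444 to 455) in Jα18-deficient and 295 CPM (286 to 304) in CD1d-deficient cells. Its share of cells after thinning was 69.4% and 71.4% in WT and Jα18-deficient cells and 57.3% (50.6 to 63.8) in CD1d-deficient cells, below the intervals of both. Dnajb1 followed Hspa1a in its order, with 111 CPM (108 to 115) in WT, 202 CPM (198 to 205) in Jα18-deficient and 129 CPM (123 to 135) in CD1d-deficient cells. After thinning a UMI of Dnajb1 was found in 31.2% (27.2 to 35.3), 43.0% (39.1 to 47.0) and 33.0% (27.0 to 39.6) of cells, where CD1d-deficient cells overlapped with both other pools.

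Hspe1, at chr1:55144976-55148151, encodes Hsp10, the lid of the mitochondrial chaperonin. It was 399 CPM (393 to 406) in WT, 267 CPM (263 to 272) in Jα18-deficient and 278 CPM (270 to 287) in CD1d-deficient cells. Its partner Hspd1, which encodes Hsp60 and shares the same start region, was 177, 147 and 153 CPM. Their annotated 5′ ends overlap by 112 bases on opposite strands. Strand use in the counting was not given in the sources used here, so reads of that stretch cannot be assigned.

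To see whether the chaperone genes differed between genotypes more often than other genes did, the comparison was kept to genes that reached 100 UMIs over a pair of pools and were seen in 20% or more of the cells of either, and a gene counted as past 2-fold at a log2 ratio of at least 1 in size. Of the 8 chaperone genes that passed this filter between CD1d-deficient and WT cells, 0 were past 2-fold higher and 1 lower, Hsph1 with a log2 ratio of -2.56 (-2.82 to -2.30). Among all 3630 genes of that comparison 5.37% were higher and 3.25% lower. Hsph1 passed the filter there only through WT, where it was found in 25.7% of cells against 10.1%, so nothing is read from its count. Hspa1a and Hspa1b did not pass the filter there, with log2 ratios of 0.032 and 0.073. Myeloid markers were 600 CPM in CD1d-deficient cells against 81.6 and 17.5 in the other pools, and their part in these counts was not tested. Between CD1d-deficient and Jα18-deficient cells all 10 passed, 0 were higher and 2 lower, Hspa1b at -2.04 and Hsph1 at -1.55, against 2.99% higher and 7.43% lower of 4579 genes. Hspa1a lay just outside at -0.96. All 3 passed only through Jα18-deficient cells, where they were found in 24.8% (Hspa1a), 20.7% (Hspa1b) and 27.3% (Hsph1) of cells, against 15.8%, 5.43% and 10.1% in CD1d-deficient cells, and nothing is read from these counts. Between Jα18-deficient and WT cells, the comparison that helped to choose the genes, 1 was higher (Hspa1b, 2.11) and 1 lower (Hsph1, -1.01) of 10, with Hspa1a just under at 0.995 (1.99-fold), and 5.38% of 4575 genes were higher and 0.809% lower.

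The 3 comparisons share their pools, so they are given side by side and not as independent evidence. The median log2 ratio of the chaperone genes that passed was -0.076 between Jα18-deficient and WT cells, -0.36 between CD1d-deficient and WT cells and -0.52 between CD1d-deficient and Jα18-deficient cells, beside medians of 0.13, 0.021 and -0.10 over all genes. TMM scaling moved the first of these medians over all genes to 0.017 and its 246 higher and 37 lower genes to 185 and 56. The median of the chaperone genes there moved with it to -0.19, and the 2 genes past 2-fold were again Hspa1b and Hsph1.

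The counts depended on how cells were weighed. With every cell thinned to 10000 UMIs, 7 of the 10 genes passed the filter in each pair and 0 were past 2-fold in any, since Hspa1a, Hspa1b and Hsph1 were then found in too few cells to pass. Their log2 ratios in thinned cells were 1.07, 2.50 and -0.47 between Jα18-deficient and WT cells, 0.22, 1.55 and -1.27 between CD1d-deficient and WT cells, and -0.84, -0.94 and -0.79 between CD1d-deficient and Jα18-deficient cells, so differences past 2-fold remained in size for some of them. With cells weighed equally, 0 of the genes that passed were past 2-fold between CD1d-deficient and either other pool. On that scale Hspa1a and Hspa1b, which did not pass, had log2 ratios of 1.69 and 2.24 between CD1d-deficient and WT cells, and Hspa1a turned from -0.96 to 0.51 between CD1d-deficient and Jα18-deficient cells. Summed over cells that met the limit of 10000 UMIs, the log2 ratio of Hspa1a between CD1d-deficient and WT cells was -0.35. Among cells with fewer than 2 UMIs of Cd8a and of the Ly49 genes, Hspa1b between CD1d-deficient and Jα18-deficient cells changed sign to 0.17, and Dnaja1 was past 2-fold lower in CD1d-deficient cells, with log2 ratios of -1.24 against WT and -1.49 against Jα18-deficient cells, from 65 CD1d-deficient cells.

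**Figure D3:**
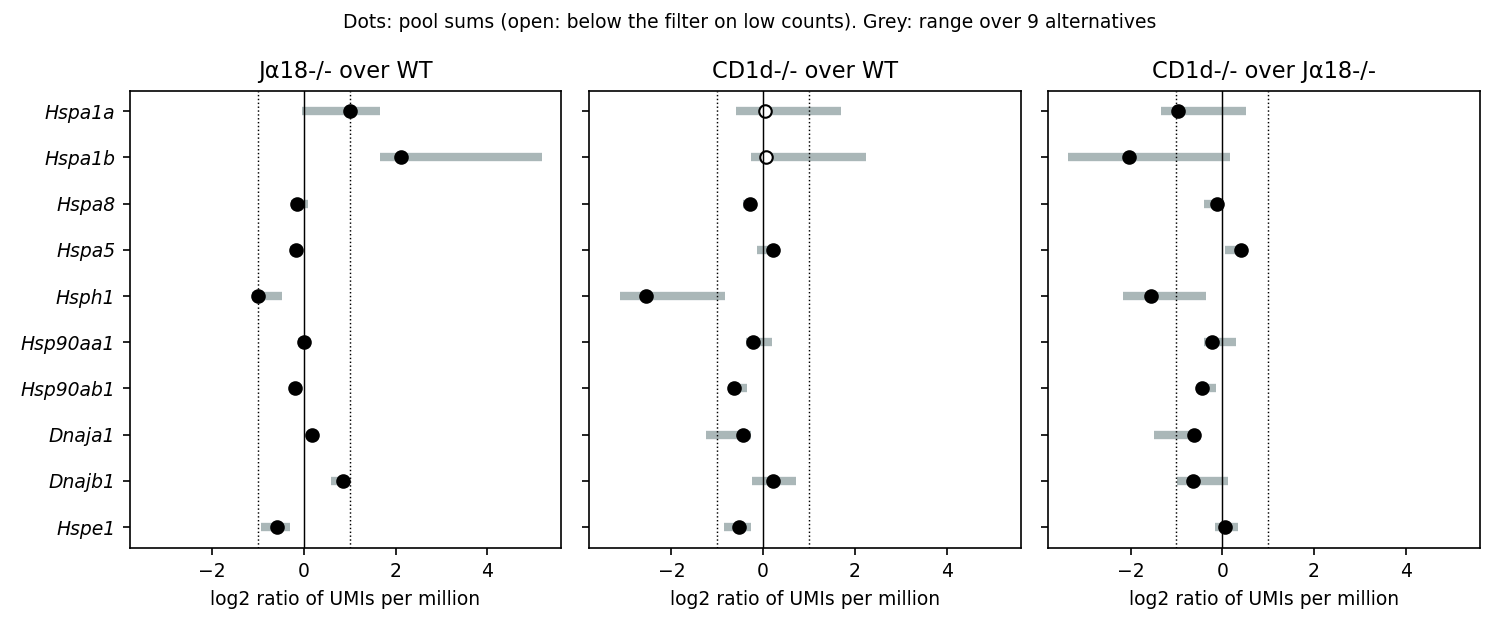
Dots give the log2 ratio of CPM between pool sums for each gene and pair of genotypes, open where the gene did not pass the filter on low counts, and grey bars span 9 alternative ways of counting. Dotted lines mark 2-fold. The bars of Hspa1a, Hspa1b and Hsph1 are the widest, and the 2-fold line is also crossed by that of Dnaja1 in both CD1d-deficient comparisons.

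Next, levels were compared between cells that carried Cd8a or Ly49 receptors and the other cells of the same pool. The first class stands in for the cytotoxic cells on which Hspa1a was chosen. No granzyme gene entered its rule, so the class is not shown to be cytotoxic. Cells with at least 2 UMIs of Cd8a or at least 2 of the 20 Ly49 genes numbered 180, 604 and 322 in the WT, Jα18-deficient and CD1d-deficient pools, against 443, 121 and 65 others, and the 3 pools were the replicates. They were deeper, with a median of 53250 against 36262, 59202 against 20755 and 18002 against 7203 UMIs, and the part of depth was not tested. None of the 10 chaperone genes passed edgeR's quasi-likelihood test at an adjusted p under the threshold of 0.05, with 0 of 10 also at an unadjusted p under it and 0 called by DESeq2. Over all 10119 genes 0.247% were called higher and 0.00988% lower, and 587 had an unadjusted p under 0.05. The median log2 fold change was -0.20 over the chaperone genes and 0.058 over all genes. The lowest p of the 10 belonged to Hsp90ab1, which had less CPM in Cd8a or Ly49 cells of all 3 pools (2004 against 2027, 1761 against 1884 and 1275 against 1592) and a log2 fold change of -0.25 ± 0.13 (SE, n = 3 pools, edgeR adjusted p = 0.875).

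Hspa1a was 26.8 and 41.1 CPM in Cd8a or Ly49 cells and other cells of the WT pool, 73.8 and 39.7 CPM in the Jα18-deficient pool and 37.8 and 27.4 CPM in the CD1d-deficient pool. The pools thus differed in direction, and the log2 fold change was 0.13 ± 0.46 (SE, n = 3 pools, edgeR adjusted p = 0.991). The gene was chosen on the Jα18-deficient and WT values of the first class, so its fold change is not independent of the choice, and without the Jα18-deficient pool it was -0.17. Hspa1b was 4.78 and 5.27, 22.3 and 16.7, and 4.07 and 18.8 CPM in the same order, and the last value came from 24 UMIs in 3 cells. Its log2 fold change was -0.69 ± 0.82 (SE, n = 3 pools, edgeR adjusted p = 0.980) and 0.062 without the CD1d-deficient pool. Hsph1 was lower in Cd8a or Ly49 cells of each pool, with 39.4 against 61.7, 26.2 against 35.8 and 8.82 against 12.5 CPM. Its log2 fold change was -0.64 ± 0.48 (SE, n = 3 pools, edgeR adjusted p = 0.968), and 0.55 in thinned cells. The remaining 6 genes had log2 fold changes from -0.23 to 0.059 with standard errors from 0.14 to 0.27. A p above the threshold does not show equal levels.

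**Figure D4:**
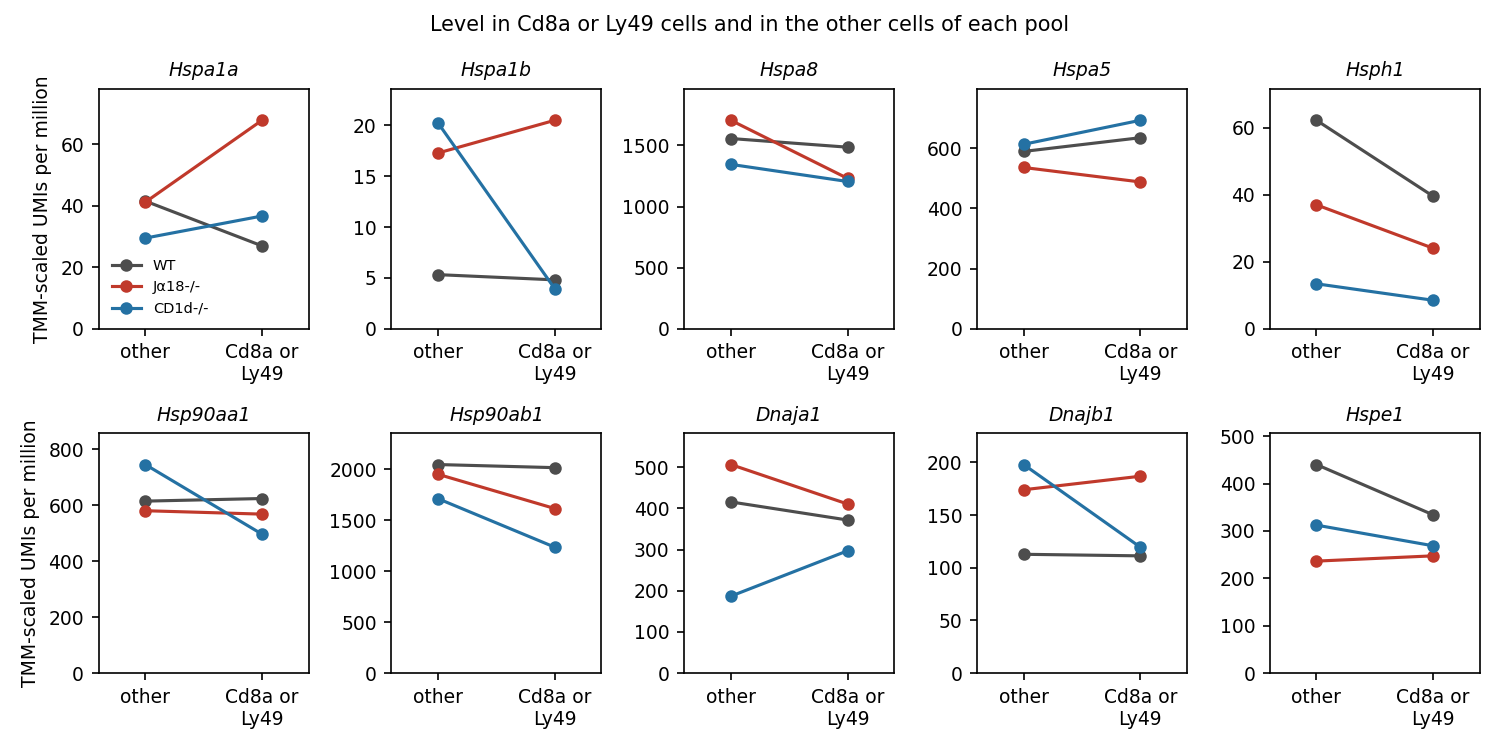
Each panel plots 1 gene as TMM-scaled CPM in the other cells (left) and in the Cd8a or Ly49 cells (right) of the 3 pools, joined by a line per pool, on axes from 0. The lines of Hsph1, Hsp90ab1 and Hspa8 fall in all 3 pools, and those of the other genes differ in direction between pools.

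Dividing cells, which make much new protein, were compared with the rest by the same test. Cells with UMIs of at least 3 of 10 cell cycle genes numbered 5, 48 and 3 in the WT, Jα18-deficient and CD1d-deficient pools. None of the 10 chaperone genes was called by edgeR, with 0 of 10 at an unadjusted p under 0.05, and DESeq2 called 0 with 1 under that p. Among all 9711 genes 0.0412% were called higher and 0% lower, and 824 had an unadjusted p under 0.05. The median log2 fold change was 0.30 over the chaperone genes and -1.01 over all genes, and 0.36 and -0.23 with no pool term. The gap between these medians is not read as a rise of the chaperone genes. Dividing cells held a median of 35237, 139701 and 76772 UMIs, beside 40467, 46670 and 13508 over all cells of the pools. The part of depth was not tested. With 5 and 3 dividing cells in the WT and CD1d-deficient pools, the lack of a call says little about these genes. The largest log2 fold change was that of Hsph1, -3.07 ± 2.37 (SE, n = 3 pools, edgeR adjusted p = 0.818), which rested on 1, 183 and 0 UMIs in the dividing cells. Hsp90aa1 was 1893 against 590 CPM in WT, 625 against 615 in Jα18-deficient and 450 against 531 CPM in CD1d-deficient cells, so the pools did not share a direction. In WT 1014 of the 1122 UMIs of the dividing cells lay in 1 cell, and without it the level was 636 CPM.

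Within a pool, the chaperone genes hardly followed each other from cell to cell. Over the 45 pairs of genes in thinned cells, Spearman's rho had a median of 0.089 in 523 WT cells, 0.027 in 632 Jα18-deficient and 0.030 in 227 CD1d-deficient cells, and the highest values were 0.28, 0.19 and 0.27. Hspa1a with Hspa1b gave 0.28, 0.12 and 0.27, and Hspa8 with Hsp90ab1 gave 0.26, 0.19 and 0.043. These are descriptions across the cells of a pool at a fixed depth, and at counts this sparse a weak rho is no finding. The labels list 8 libraries a genotype that could not be tied to cells, and their part in these values was not tested. Of 1989 other genes found in at least 20% of the thinned cells of every pool, those most like Hspa5 were Hsp90b1, Pdia6, Calr, Ptma and Nme1, with a mean rho over the 3 pools from 0.132 to 0.202. Among those most like the sum of Hspa1a and Hspa1b were B2m, Junb, Jun and 1600014C10Rik, with a mean rho from 0.115 to 0.142.

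The wider chaperone network was looked at through 8 lists of 104 genes, all of them in the matrix. The lists include 1 of 13 immediate early genes, which are not chaperones. Between Jα18-deficient and WT cells 72 of the 104 passed the filter, 2 were past 2-fold higher and 0 lower. Between CD1d-deficient and WT cells 67 passed, 2 were higher and 1 lower, and between CD1d-deficient and Jα18-deficient cells 72 passed, 1 was higher and 3 lower. In the same order, the immediate early list held 1, 2 and 1 of the higher genes and 0, 0 and 0 of the lower genes. The counts of higher genes are therefore not those of chaperone genes alone. The background shares given above apply to these counts. All 8 subunits of the cytosolic chaperonin TRiC passed and none was past 2-fold in any pair, with Cct7 at 231, 234 and 240 CPM and Cct5 at 251, 235 and 168 CPM in WT, Jα18-deficient and CD1d-deficient cells. None of the J-domain list was past it either, and its highest genes were Dnajc8, at 352, 364 and 517 CPM, and Dnajc15, at 329, 342 and 393 CPM.

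Among the co-chaperones of Hsp70, Hspbp1 (152, 109 and 84.3 CPM) and St13 (133, 111 and 94.0 CPM) were the highest, and the nucleotide exchange factor Bag1 was 46.2, 91.9 and 83.9 CPM. Among those of Hsp90, Cdc37, which brings kinases to Hsp90, stayed at 335, 327 and 308 CPM. Unc45a, a myosin chaperone, was 16.1, 35.8 and 16.3 CPM, past 2-fold higher in Jα18-deficient cells than in WT cells and lower in CD1d-deficient than in Jα18-deficient cells. Hsf1 had log2 ratios of 0.020, 0.041 and 0.021 in the 3 comparisons. Of the 8 heat shock factors and small heat shock proteins only Hsf1 and Hsbp1, which encodes an inhibitor of HSF1, passed the filter.

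In the mitochondrial list Trap1, the mitochondrial Hsp90, was 24.1, 32.3 and 11.1 CPM in WT, Jα18-deficient and CD1d-deficient cells, and was past 2-fold lower in CD1d-deficient cells than in either other pool (log2 ratios of -1.12 and -1.55). In the endoplasmic reticulum, Hsp90b1 (690, 649 and 709 CPM) and Pdia3 (582, 507 and 481 CPM) were the highest, and Sil1, the exchange factor of BiP, was 21.1, 38.1 and 17.9 CPM, with a log2 ratio of -1.09 between CD1d-deficient and Jα18-deficient cells. Unc45a, Trap1 and Sil1 may each have passed the filter through the higher pool alone, and nothing is read from their differences. Of the immediate early genes, which dissociation of tissue is known to induce, Fos was 26.2, 71.3 and 55.9 CPM and Jun 105, 122 and 294 CPM. Fos was past 2-fold above WT in both deficient pools (1.45 and 1.09). It was open to be named because of its large Jα18-deficient to WT ratio. Fos may also have passed the filter through the higher pool alone, and nothing is read from its differences. Jun was past 2-fold in CD1d-deficient cells against WT (1.49) and Jα18-deficient cells (1.27), while Junb (326, 286 and 237 CPM) and Btg2 (486, 354 and 345 CPM) were not. The part of dissociation in these levels was not tested. Myeloid markers were also highest in CD1d-deficient cells, and their part in the Jun difference was not tested.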

How the data were processed

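Single-cell RNA-seq was made from NK1.1+CD3e+ liver cells of the 3 genotypes. According to the methods and the submitters' processing notes, the authors trimmed reads with cutadapt 1.15, aligned read 1 to the mm9 transcriptome with TopHat2 2.0.12, removed duplicates by UMI and counted transcripts per gene with HTSeq 0.10.0. The deposited matrix holds whole UMI counts per gene and cell (24447 genes, 1735 cells), and no row was without a gene name. The methods keep cells with more than 500 genes and 10000 to 600000 transcripts, which 353 deposited cells fell below; all cells were used here. No doublet caller was run, since cells were picked by hand.

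UMIs were summed per genotype and given as CPM with exact Poisson intervals, and shares of cells with exact Clopper-Pearson intervals (95%). Intervals and floors (3 counts) cover counting error only. Cells were thinned to 10000 UMIs without replacement. Cell classes were compared on sums per pool with edgeR 4.0.16 (quasi-likelihood test, TMM, filterByExpr, pool as a term, Benjamini-Hochberg adjustment) in R 4.3.3, with DESeq2 1.42.0 as an alternative. The fit was tested on simulated data. There, 4-fold changes were often missed between Cd8a or Ly49 cells and other cells and always between dividing and other cells. Between dividing and other cells, part of the 64-fold changes was missed as well. The pools differ in genotype, so their spread is not one of like samples. Python 3.11.15, scipy 1.17.1 and pandas 2.3.3 were used for the rest. Promoter windows came from RefSeq (GRCm38.p6 table), and coordinates from exact matches in mm9 and GENCODE M1. All 10 genes are named. From each pathway list the 2 highest genes and the 2 with the largest Jα18-deficient to WT ratio were open to be named, and the 5 most like Hspa5 and the Hspa1a and Hspa1b sum, of which 1 gene is not reported here. The genes and lists were chosen with earlier results of these data known.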

Additional observations from a re-analysis of the deposited data

How the results depend on the processing

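No paired analysis was possible because the cell names carry no library number, so the numbers shared by the labels could not be tied to cells. Counts of chaperone genes past 2-fold stayed within 1.5 times in 20 recomputations and moved further in 7. Cells thinned to 10000 UMIs gave 0 in each of the 3 pairs, because Hspa1a, Hspa1b and Hsph1 no longer passed the filter; ratios past 2-fold remained for Hspa1a (1.07) and Hspa1b (2.50) between Jα18-deficient and WT cells and for Hspa1b (1.55) and Hsph1 (-1.27) between CD1d-deficient and WT cells. The mean of per-cell CPM gave 0 in both CD1d-deficient comparisons among the genes that passed. Only other cells gave 0 between Jα18-deficient and WT cells and 2 (Hsph1 and Dnaja1) between CD1d-deficient and WT cells, where Hspa1b against Jα18-deficient cells turned to 0.17. A count that stayed at 2 between Jα18-deficient and WT cells was Hspa1a and Hspa1b, without Hsph1, in 3 settings (per-cell means, Cd8a or Ly49 cells alone, and without each gene's 10 highest cells). Over all genes of that pair, 246 higher and 37 lower became 3212 and 2178 with no filter, 61 and 20 in thinned cells, 395 and 78 in Cd8a or Ly49 cells and 250 and 211 in other cells.

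No chaperone gene was called between cell classes under the 14 alternatives that could be fitted, which does not show that levels were equal. Dividing cells defined by 5 of 10 genes or after thinning could not be fitted, since the WT and CD1d-deficient pools then held 1 dividing cell each. For Cd8a or Ly49 cells, the 25 higher and 1 lower of all genes became 66 and 35 with DESeq2, 58 and 41 with no filter, 9 and 0 with no pool term and 24 and 21 without the WT pool. For dividing cells, 4 and 0 became 24 and 14, 9 and 0, 0 and 0 and 0 and 0 under the same 4 settings, 6 and 0 without the Jα18-deficient pool and 14 and 3 without the CD1d-deficient pool.

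Of the log2 fold changes under alternatives, 119 kept their sign and 21 turned, none of them called. For Cd8a or Ly49 cells these were Dnaja1 (-0.0435) with no pool term, Hspa1a (-0.34), Hspa8 (0.10), Hspa5 (-0.0432), Dnajb1 (0.0611) and Hspe1 (0.15) with classes from 1 UMI, and Hspa1a (-0.46), Hsph1 (0.55), Hsp90aa1 (0.0277) and Dnajb1 (0.0798) in thinned cells. Leaving out 1 pool at a time gave ranges of -0.17 to 0.52 for Hspa1a, -1.23 to 0.0620 for Hspa1b, -0.00323 to 0.14 for Hspa5, -0.30 to 0.00607 for Hsp90aa1, -0.22 to 0.25 for Dnaja1 and -0.37 to 0.0520 for Dnajb1. The sign turned without the Jα18-deficient pool for Hspa1a and without the CD1d-deficient pool for the other 5 genes. For dividing cells the ranges were -1.34 to 1.76 for Hspa1a, -0.56 to 0.79 for Hspa5, -0.19 to 0.72 for Dnajb1 and -0.74 to 0.19 for Hspe1, with turns without the WT pool (Hspa1a and Hspe1), the Jα18-deficient pool (Hspa1a) or the CD1d-deficient pool (Hspa5 and Dnajb1). The causes were not tested. An alternative chosen after seeing the data left out the cell with the most UMIs of a gene from the dividing cells and from the 10 cells highest in Hspa1a and Hspa1b, and moved the level of the set by over 1.5 times in 27 cases and not in 33, genes at 0 in both included. CD1d-deficient cells were the shallowest, so shares of low genes are least precise there.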
